A study of Mus musculus with 6 samples.

Results

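Gene expression was compared between 2 RNA-seq libraries of long-term haematopoietic stem cells (LT-HSCs), 1 from wild-type C57BL/6 mice and 1 from C57BL/6 mice in which Twist1 was conditionally knocked out (cKO), both at steady state, that is, untreated. They are 2 of the 6 samples of the series. The other RNA libraries were made, 1 per genotype, 12 days after irradiation, and 2 further samples, ATAC-seq after irradiation, were not used. Cells were sorted from bone marrow as Lineage-Sca1+cKit+CD34-Flk2-. The sources used here do not give the Cre driver of the knockout, the number of mice behind each library, or their age and sex. Of 30409 genes listed, 7157 reached 5 FPKM (reads scaled by gene-model length and library size) in the higher steady-state library and were compared. With 1 library per genotype there was no replicate and no test, so each difference describes these libraries, not the genotypes.

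The product of Twist1 is a transcription factor of the basic helix-loop-helix family. It pairs with E proteins and binds short DNA motifs called E-boxes. Id proteins, which lack a DNA-binding region, take up E proteins and limit such pairing. LT-HSCs are rare, mostly quiescent cells that renew themselves and give rise to all blood lineages. Around them in the marrow are resident macrophages, which clear dying cells and recycle the iron of red cells, maturing neutrophils, which fill successive sets of granules, plasma cells, which secrete antibody, and stromal cells of the niche.

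Differences are given as cKO minus wild type on the scale log2(FPKM + 1), and values given in pairs are FPKM with wild type first. Folds are ratios of FPKM with exact 95% intervals from reads recovered from the FPKM, and these intervals cover counting error only. The library sizes behind the values were 26031985 reads (wild type) and 25239648 reads (cKO), and 73.1% and 77.0% of genes were above 0. The median compared gene had 2625 reads over both libraries, so counting noise was small for most genes. Where fewer cells of a type were present, or less RNA per cell of that type, the levels look the same, and these cannot be told apart in bulk RNA.

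Twist1 itself (ENSMUSG00000035799, chromosome 12, 33957671 to 33959831 in GRCm38) was near the floor in both libraries. The count was 6 reads in wild type (0.143 FPKM) and 2 reads in cKO (0.0490 FPKM), a ratio with a 95% counting interval of 0.0339 to 1.92. The values thus do not check the knockout label, and the sources used here do not say which exons were deleted. Twist2, its close relative, had 0 and 2 reads.

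Markers of LT-HSCs were present in both libraries and less than 1.5-fold apart, while Cd34 and Flt3, whose products the sort selects against, were higher in the cKO library. Kit, the stem cell factor receptor, was at 20.1 and 27.6 FPKM, and Ly6a, which encodes Sca1, was at 534 and 362 FPKM, 1.47-fold lower in cKO (1.44 to 1.51). Procr, the endothelial protein C receptor, was at 51.3 and 66.1, the transcription factor gene Hlf at 17.4 and 17.7, Meis1 at 18.1 and 23.5 and Slamf1, which encodes CD150, at 7.41 and 6.82. Mecom (3.83 and 4.44) and Fgd5 (1.69 and 1.79) were detected below the minimum. Of the 34 genes of the LT-HSC list, 24 were compared: none was 1.5-fold apart (7.28% over all genes), 15 were above 0, and the median was 0.13, against 0.01 over all 7157 genes. Hoxa9, a homeobox regulator of stem cell renewal, stood highest among them, at 11.7 and 16.6 FPKM (difference 0.47). Cd34 was at 18.4 and 29.2 FPKM, 1.59-fold higher in the cKO library (1.52 to 1.66). Flt3, which encodes Flk2, was at 6.26 and 9.32 FPKM, 1.49-fold higher (1.37 to 1.62). Messages of lineage antigen genes were present in both libraries: of 12 such genes, 4 were compared, among them Fcgr3 (72.0 and 32.0) and Ly6c2 (306 and 165). Ptprc, also compared, was at 9.03 and 10.1 FPKM. Gene-level values do not separate its isoforms, so it does not show cells outside the gate. The lineage antigen genes not compared, such as Cd3e, Cd4, Cd8a, Itgam and Ly6g, were below 5 FPKM in both libraries, and none was at 0.

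Most genes were at like levels in both libraries, and those apart were mostly lower in the cKO library. Differences of 2-fold or more were found for 239 genes (3.34% of those compared), of which 46 were higher in the cKO library (0.643%) and 193 lower (2.7%). The middle of the distribution was narrow, with quartiles of -0.16 and 0.14, and 6636 genes (92.7%) were within 1.5-fold. Higher genes made up 19.2% of those called, a share of 29.3% with values scaled to the reads recovered and of 34.3% without the 50 most abundant genes, settings that moved the median of all genes to 0.14 and 0.19. Variable, diversity or joining segments of immunoglobulin and T cell receptor genes supplied 19 of the higher and 93 of the lower genes, and immunoglobulin constant genes another 6 of the lower. Leaving out these segments and the immunoglobulin constant genes left 27 higher (0.388%) and 94 lower (1.35%) among 6954 genes. T cell receptor constant genes stayed in. Of other named genes, 12 were higher and 85 lower. Of these 85, 21 were in the resident macrophage list, and of the 12 higher, 6 were in the list of secondary and tertiary neutrophil granule genes. The last gene called lower was Sdc3 (5.45 and 2.20 FPKM) and the first left out was Sirpa (15.6 and 7.31), while on the other side Xlr3b (4.18 and 9.54) was the last called higher and Prmt1 (14.6 and 28.6) the first left out.

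**Figure D1:**
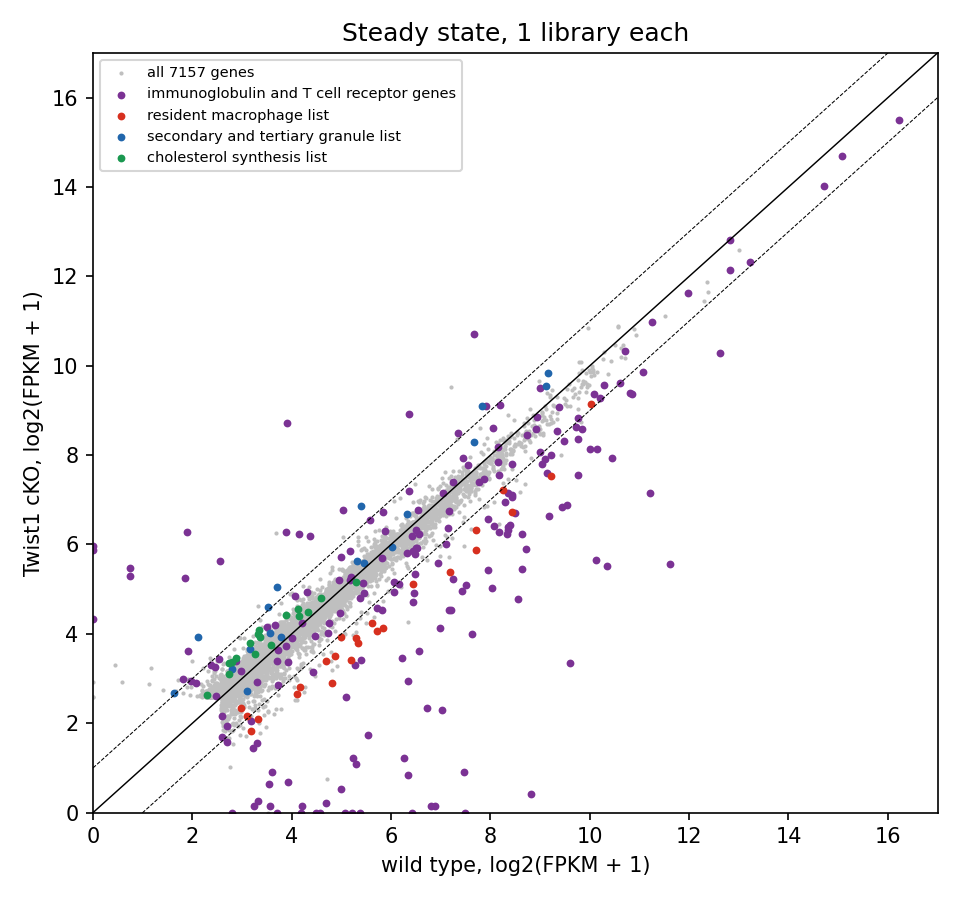
Level of each of the 7157 compared genes in the wild-type library (x axis) and the Twist1 cKO library (y axis), both as log2(FPKM + 1), with 4 gene groups coloured. The solid line marks equal levels and the dashed lines 2-fold differences. Immunoglobulin genes and T cell receptor segments lie farthest from the solid line. The macrophage genes all lie below it, and most secondary and tertiary granule genes lie above it.

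Genes of resident marrow macrophages formed the most uniform group of lower genes. Of 30 genes in the list, 24 were compared, and all 24 were lower in the cKO library by 1.5-fold or more, 21 of them by 2-fold or more, with a median of -1.37. Over all genes compared, 5.51% were 1.5-fold lower and 2.7% were 2-fold lower. The remaining 6 were below the minimum: Itgad (3.8 and 1.14), Mertk (3.18 and 0.804), Marco (1.86 and 0.309), Siglec1 (1.33 and 0.283), Trf (0.960 and 0.394) and Clec4f, with 1 and 2 reads. No member was at 0 in either library. The 30 genes together took 0.769% of recovered reads in wild type and 0.360% in cKO. The labelled cells are not macrophages, and the part of macrophage RNA in the other differences was not tested.

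The macrophage genes covered several functions. The complement C1q genes, whose products tag dying cells and immune complexes for uptake, are neighbours on chromosome 4. C1qa was at 207 and 58.0 FPKM, 3.58-fold lower in the cKO library (3.38 to 3.79). C1qb was at 599 and 183 FPKM, 3.27-fold lower (3.17 to 3.38). C1qc was at 346 and 105 FPKM, 3.28-fold lower (3.18 to 3.39). The 3 subunit genes thus kept nearly the same ratio to each other in both libraries. Among receptors, Cd209f, a C-type lectin, was at 27.1 and 6.50 FPKM, 4.17-fold lower (3.69 to 4.72), and Fcna, a soluble ficolin lectin, at 145 and 40.9 FPKM, 3.55-fold lower (3.35 to 3.77). Cd5l, a secreted macrophage scavenger protein, was at 56.1 and 16.5 FPKM, and the chemokine gene Ccl8 at 35.6 and 9.69.

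The genes of iron recycling, picked out for their role after the values were seen, were lower by like amounts. Spic, the transcription factor of iron-recycling macrophages, was at 28.2 and 10.4 FPKM, 2.72-fold lower (2.53 to 2.93). Vcam1, an adhesion molecule of these cells, was at 48.3 and 18.0 FPKM, 2.68-fold lower (2.58 to 2.77). Slc40a1, which encodes the iron exporter ferroportin, was at 38.2 and 14.1, and Hmox1, the haem-degrading enzyme, at 86.2 and 33.5 FPKM. Cd163, the haemoglobin-haptoglobin receptor, was less far apart, at 6.84 and 4.07 FPKM, 1.68-fold lower (1.51 to 1.87). Ferritin genes, which are active in many cell types, were lower to a smaller extent: Fth1 was at 5242 and 3746 FPKM and Ftl1 at 5294 and 3231. Uptake receptors gave Timd4 at 9.02 and 3.25, Axl at 24.7 and 9.57 and Mrc1 at 8.05 and 2.54 FPKM.

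Promoters of C1qb and C1qc are shown because these neighbouring genes were apart by similar ratios. The promoter set used here held none for C1qa. Each sequence is the 250 bases before the RefSeq start site, 5′ to 3′ on the gene's strand, in build GRCm38.p6. Capitals in C1qb mark CATCTG, 1 form of the E-box CANNTG that helix-loop-helix proteins bind. Both sequences also hold other forms of CANNTG, which are not marked. Capitals in C1qc mark the complement of GAGGAAGT, a motif of ETS factors such as PU.1, which directs macrophage genes. C1qb is at chr4:136886201-136886450 and C1qc at chr4:136892915-136893164, both on the minus strand.
C1qb: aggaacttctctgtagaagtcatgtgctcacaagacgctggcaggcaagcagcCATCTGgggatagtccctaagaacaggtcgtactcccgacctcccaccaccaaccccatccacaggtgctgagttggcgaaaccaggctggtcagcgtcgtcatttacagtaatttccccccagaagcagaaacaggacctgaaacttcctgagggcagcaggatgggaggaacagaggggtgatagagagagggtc
C1qc: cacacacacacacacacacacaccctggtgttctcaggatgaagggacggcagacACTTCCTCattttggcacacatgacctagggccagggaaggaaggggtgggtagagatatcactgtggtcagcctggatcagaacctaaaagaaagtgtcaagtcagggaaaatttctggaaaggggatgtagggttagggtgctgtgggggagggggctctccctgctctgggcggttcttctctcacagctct
Both strands of the full 300-base windows were searched. The compared macrophage genes had 21 windows, from 17 genes. CATCTG was in 4 of these 21 windows (19.0%), in 17.2% of all 32851 windows and in 10.9% of those of named genes compared. GAGGAAGT was in 1 of the 21 (4.76%), in 3.20% of all windows and in 3.29% of those of named genes compared. CANNTG, which includes CATCTG, was in 15 of the 21 (71.4%), in 72.3% of all windows and in 63.1% of those of named genes compared. Such matches describe the letters alone and not whether a factor binds.

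Genes shared by macrophages with monocytes and dendritic cells were lower as well, although the monocyte list as a whole was mixed. Fcgr1, the high-affinity antibody receptor, was at 9.29 and 2.43 FPKM, 3.82-fold lower (3.20 to 4.57). Ly6c2, a surface protein gene of inflammatory monocytes, was at 306 and 165 FPKM. Of the 11 compared members of the list, 5 were 1.5-fold lower (5.51% over all genes) and the median was -0.40, but Ms4a6c (14.9 and 15.1 FPKM) and Plac8 (206 and 195) were close to equal. Autophagy and lysosome genes had a median of -0.29 over 31 compared, with 7 at least 1.5-fold lower (5.51% over all genes) and none 1.5-fold higher, and a median of -0.10 without the 50 most abundant genes. The 4 farthest apart were Cd68 (208 and 79.7), Psap (148 and 69.9), Ctss (365 and 173) and Pld3 (105 and 49.6), all of which macrophages express strongly. Of 8 compared MHC class II genes, whose products present antigen on macrophages, dendritic cells and B cells, 7 were below 0. H2-Eb1 was at 175 and 96.6 FPKM, H2-Aa at 218 and 128 and H2-Ab1 at 345 and 206. The eighth, H2-Ob, a modulator of peptide loading, went the other way, at 5.45 and 9.02 FPKM.

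Of 39 named genes that were 2-fold lower and in no list, several are known from myeloid cells. They were read after their values were seen. Mpeg1, which encodes the pore-forming protein perforin-2, was at 5.72 and 1.03 FPKM, 5.54-fold lower (4.53 to 6.83). Slpi, a secreted protease inhibitor, was at 289 and 86.6 FPKM, 3.34-fold lower (3.19 to 3.49). Fpr1, the formyl peptide receptor, was at 16.2 and 4.76 FPKM, Cfp, which encodes properdin of the complement system, at 142 and 51.4, and Tyrobp, the adaptor DAP12, at 267 and 123. Pparg, a nuclear receptor of fat cells and tissue macrophages, was at 8.86 and 3.31 FPKM.

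In the list of eosinophil, basophil and mast cell genes, all 7 compared of 21 were below 0, with a median of -0.61, and 4 were 1.5-fold lower (5.51% over all genes). This depended on the minimum level and on scaling. At a minimum of 1 FPKM, 6 of 16 were above 0, with 3 at least 1.5-fold higher and 4 lower. With recovered read totals 2 of 8 were above 0. Ccr3, the eotaxin receptor of eosinophils, was at 27.2 and 8.12 FPKM, 3.35-fold lower (3.07 to 3.66), and Ear2, an eosinophil ribonuclease, at 56.3 and 25.6. The mast cell protease genes Cma1 and Tpsb2 were at 11.8 and 7.12 and at 16.8 and 10.6 FPKM. The granule genes Prg2 (146 and 132) and Cpa3 (27.6 and 26.6) were closer, and Epx was near the floor at 0.267 and 0.796.

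Antibody genes held the most abundant messages in both libraries and nearly all of the extreme differences. Immunoglobulin genes took 14.7% of the recovered wild-type reads and 9.87% of those of cKO. Igkc, the kappa light chain constant gene, was the most abundant gene, at 77061 and 46140 FPKM, 1.67-fold lower in the cKO library (1.66 to 1.68). Ighm, the constant gene of IgM, was at 26708 and 16527 FPKM, 1.62-fold lower (1.61 to 1.62). All 10 compared constant genes were below 0, with a median of -1.68, and 8 were at least 1.5-fold lower (5.51% over all genes). IgG genes were farthest apart. Ighg1 was at 24.9 and 0.153 FPKM, or 1681 and 10 reads, 163-fold lower (88.4 to 341). Ighg3 was at 420 and 58.3 FPKM, 7.21-fold lower (6.85 to 7.61), Ighg2c at 245 and 42.3, and Ighg2b at 334 and 86.1. Igha, the IgA gene, was at 1667 and 1290 FPKM and thus much closer. In the lambda light chain locus Iglc3 (693 and 113) and Iglc2 (1787 and 668) were farther apart than Iglc1 (4019 and 3159), and these near-copies share sequence, so their split is uncertain. Below the minimum were Ighd, higher in the cKO library at 0.566 and 2.77 FPKM, Iglc4 at 4.77 and 2.02, and Ighe, with 0 reads in the wild-type library.

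Variable segments, of which each antibody-producing cell uses 1 per chain, differed in both directions. Of 243 V segments, 170 were compared, of which 89 were lower and 18 higher in the cKO library by 2-fold or more (2.7% and 0.643% over all genes). Among the segments compared, 10 had 0 reads in cKO and 3 had 0 reads in wild type. The following single segments lie outside the naming rule and were chosen after their values were seen. Igkv12-98 was at 3142 and 46.2 FPKM, 67.9-fold lower in the cKO library (61.6 to 75.1). Igkv6-32 was at 202 and 1666 FPKM, 8.24-fold higher (7.85 to 8.64), and Igkv1-99 at 13.9 and 423, 30.4-fold higher (23.9 to 39.3). Igkv14-130 had 0 and 551 reads, at least 189-fold higher against a floor of 3 reads. A shared pair of segments led both libraries. Ighv11-2 was at 7223 and 7185 FPKM, a difference of -0.01, and made up 37.8% of heavy chain V reads in wild type and 58.8% in cKO. Igkv14-126 was at 34417 and 26654 FPKM and made up 42.1% and 54.5% of kappa V reads. This heavy and light chain pair is known from B-1 cells that bind phosphatidylcholine. V segments are similar in sequence, so reads may be shared among them.

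Plasma cell genes other than antibody genes were lower together, by less than the IgG genes. All 14 compared of 16 in the list were below 0, with a median of -0.63, and 9 were at least 1.5-fold lower (5.51% over all genes), or 4 of 13 without the 50 most abundant genes, 5 of 14 with recovered read totals and 6 of 14 with a pseudocount of 5. Tnfrsf17, the survival receptor BCMA, was at 44.4 and 17.8 FPKM, 2.49-fold lower (2.20 to 2.82). Mzb1, a chaperone of antibody assembly, was at 234 and 113, Derl3 at 44.6 and 21.2, and Jchain, which joins IgM and IgA into multimers, at 5063 and 2794 FPKM. The plasma cell regulator Xbp1 was at 226 and 160 FPKM, while Irf4 (1.88 and 1.12) and Prdm1 (2.30 and 1.33) were below the minimum. Among B cell genes 9 of 10 compared were below 0 (median -0.38), led by Ly6d (314 and 149 FPKM). Genes of the pre-B cell receptor were closer: Vpreb1 was at 21.5 and 20.6 FPKM and Igll1 at 19.7 and 16.7. Pax5, the B cell identity factor, was near the floor at 0.0217 and 0.0313 FPKM.

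Neutrophil genes differed by granule, with secondary and tertiary granule genes higher in the cKO library and primary granule genes slightly lower. Primary granules are made at the promyelocyte stage and secondary and tertiary granules later in maturation. All but 1 of the 9 primary granule genes were below 0, with a median of -0.27. Without the 50 most abundant genes 3 of the 9 were above 0, none was 1.5-fold lower, and the median was -0.08. Over all compared genes the median was -0.14 at a mean of 100 to 200 FPKM and -0.28 at 200 FPKM or more. The part of level in the primary granule median was not tested. Ctsg, cathepsin G, was at 205 and 138 FPKM, Elane, neutrophil elastase, at 1007 and 763, Prtn3 at 220 and 182 and Mpo, myeloperoxidase, at 181 and 157. Ctsc, the protease that activates them, was at 51.6 and 32.6 FPKM and was the only list member 1.5-fold lower (5.51% over all genes). In contrast, 16 of 18 compared secondary and tertiary granule genes were above 0, with a median of 0.47. Of the 18, 8 were at least 1.5-fold higher (1.77% over all genes), and 6 were at least 2-fold higher (0.643% over all genes). The list holds 26 genes. Retnlg was at 3.35 and 14.2 FPKM, 4.24-fold higher in the cKO library (3.13 to 5.84). Chil3 was at 40.8 and 115 FPKM, 2.83-fold higher (2.68 to 2.99). Ltf, lactoferrin, was at 12.0 and 31.8 FPKM, 2.66-fold higher (2.48 to 2.85), and Ngp, neutrophilic granule protein, at 225 and 546, 2.43-fold higher (2.36 to 2.49).

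Most of the remaining secondary and tertiary granule genes went the same way, with smaller differences on the scale log2(FPKM + 1), though not always with smaller folds. Lcn2, an iron-binding lipocalin, was at 10.4 and 23.2 FPKM, and Cd177 at 2.1 and 5.41, 2.58-fold higher (2.14 to 3.13). Camp, cathelicidin, was at 203 and 314 FPKM, S100a8 at 554 and 744 and S100a9 at 574 and 915. Exceptions were Cybb (7.60 and 5.56), which macrophages also express, and Hp (64.1 and 60.7). Members that stayed below the minimum included the neutrophil surface gene Ly6g (0.734 and 2.69), Mmp8 (0.799 and 2.05) and Mmp9 (0.271 and 1.37), and Stfa2 was at 0 in both. The share of recovered reads was 0.167% in wild type and 0.303% in cKO for this list, and 0.348% and 0.322% for primary granule genes. Thus the wild-type library had more reads in primary than in later granule genes, by a wider margin than the cKO library.

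**Figure D2:**
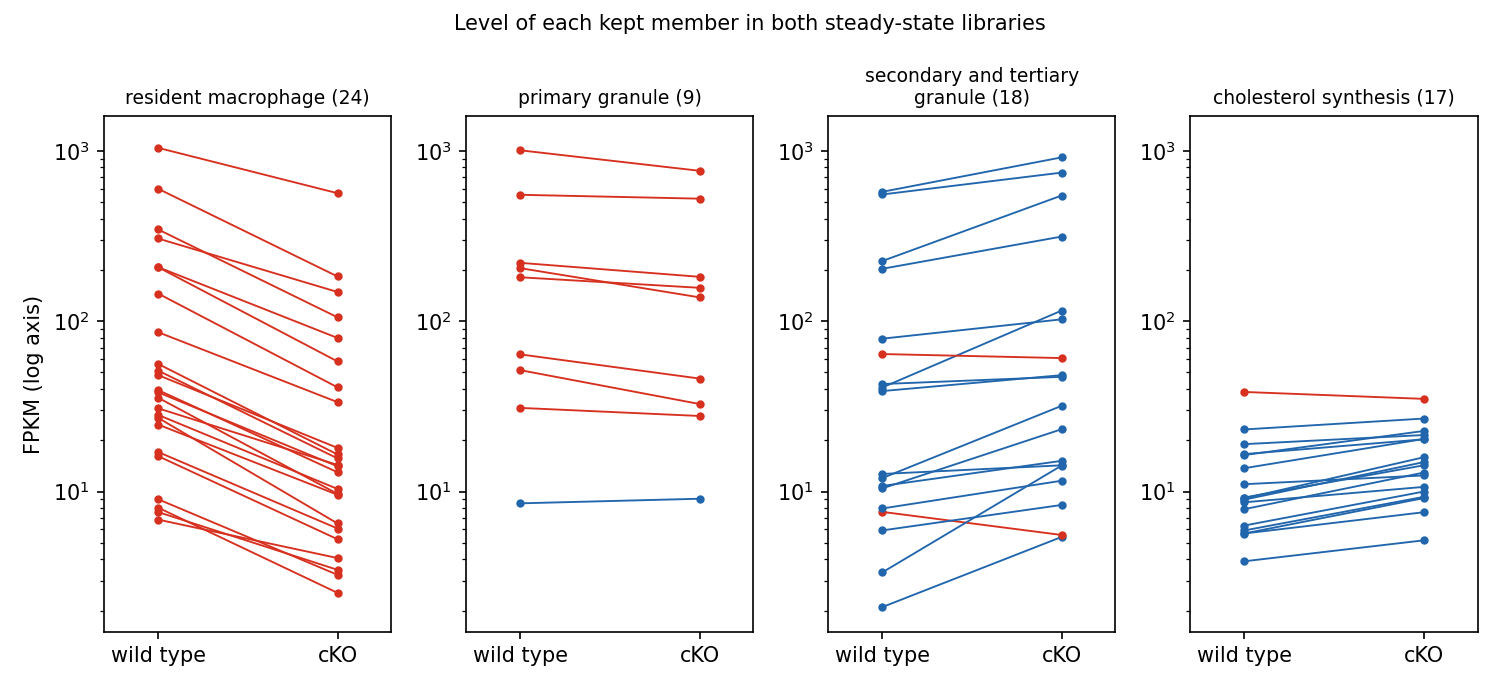
FPKM (log axis) of every compared member of 4 gene lists in the wild-type and Twist1 cKO libraries, with a line joining the 2 values of a gene (red: lower in cKO; blue: higher). All 24 macrophage genes slope down, 8 of 9 primary granule genes slope down, 16 of 18 secondary and tertiary granule genes slope up, and 16 of 17 cholesterol genes slope up.

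Markers of stroma, bone and fat and of red cells were mostly lower in the cKO library. All 10 compared genes of the stroma, bone and fat list were below 0 (median -0.70), and 8 were at least 1.5-fold lower (5.51% over all genes), or 4 without the 50 most abundant genes and 5 with recovered read totals or a pseudocount of 5. Ibsp, bone sialoprotein, was at 40.6 and 19.5 FPKM, 2.08-fold lower (1.93 to 2.25). Lpl, lipoprotein lipase, was at 12.1 and 6.15, Adipoq, adiponectin, at 13.7 and 7.06 and Cxcl12, the chemokine that holds stem cells in the niche, at 27.2 and 16.7 FPKM. Collagen gene Col1a1 had 11 and 2 reads. Of 18 compared red cell genes 16 were below 0 (median -0.33), and 6 were at least 1.5-fold lower (5.51% over all genes). The 4 at least 2-fold lower (2.7% over all genes) were globin genes. Above 0 were 6 of 16 without the 50 most abundant genes and 6 of 18 with recovered read totals. Under the scalings run the list median ranged from -0.35 to -0.15. Among globin genes, Hba-a1 was at 685 and 255 FPKM, 2.69-fold lower (2.61 to 2.78), and Hbb-bs at 387 and 143, 2.69-fold lower (2.59 to 2.81). Alpha- and beta-globin pairs are near-copies, so their split is uncertain. Early erythroid genes were closer, with Gata1 at 42.2 and 38.9 FPKM, Klf1 at 93.5 and 70.0 and Tfrc at 6.14 and 6.00. Megakaryocyte genes, like most genes, were near equal: none of 14 compared was 1.5-fold apart (7.28% over all genes). Their median of -0.01 turned positive without the 50 most abundant genes and with recovered read totals, antibody genes included or not. Itga2b, the integrin CD41, was at 18.8 and 24.2 FPKM. Of 8 compared endothelial genes 6 were above 0, with a median of 0.19 that turned negative with no minimum. Fabp4 (8.99 and 3.94 FPKM) was the only one of them 1.5-fold lower (5.51% over all genes).

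**Figure D3:**
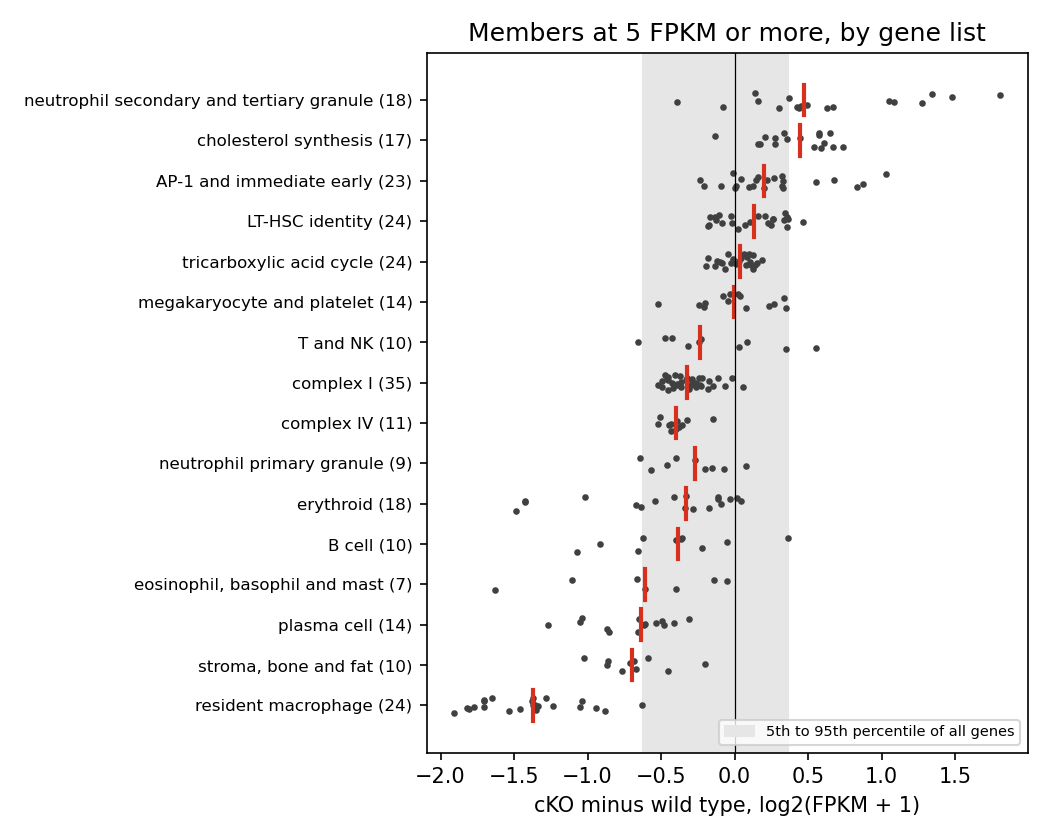
Difference between the Twist1 cKO and wild-type libraries, as log2(FPKM + 1), for each compared member of 16 gene lists (points; number of genes in brackets), with list medians (red bars) and the range from the 5th to the 95th percentile of all 7157 genes (grey). All 24 macrophage points lie left of the grey range or at its edge, and the cholesterol and secondary and tertiary granule lists lie mostly to the right of 0.

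Cholesterol synthesis genes were higher in the cKO library as a group. The enzymes turn acetyl-CoA into sterols, and their genes are known to be switched on together by SREBP-2 when cell sterol is low. Of 23 genes in the list, 17 were compared, 16 were above 0 and 5 at least 1.5-fold higher (1.77% over all genes), with a median of 0.45. The number 1.5-fold higher was 0 with a pseudocount of 5 or a minimum of 20 FPKM and 9 without the 50 most abundant genes, with 5 of 6 and 17 of 17 above 0 in the latter 2 settings. Without the 50 most abundant genes the median of all genes was also higher, at 0.19. Insig1, which holds SREBP in the endoplasmic reticulum, was at 9.12 and 15.9 FPKM, 1.74-fold higher (1.59 to 1.91). Sqle, squalene epoxidase, was at 8.96 and 14.9 FPKM, 1.66-fold higher (1.55 to 1.78). Hmgcs1, which makes HMG-CoA, was at 7.88 and 12.9 FPKM, 1.64-fold higher (1.49 to 1.81). The Hmgcs1 values rest on 663 and 1054 reads. Idi1, an isomerase of the pathway, was at 6.31 and 9.99 FPKM, Cyp51 at 9.22 and 14.3 and Msmo1 at 13.7 and 20.3. Srebf2, which encodes SREBP-2, was closer, at 23.1 and 26.8 FPKM, and Ebp, the only member below 0, was at 38.4 and 35.0. Among those below the minimum, Lss was at 1.61 and 2.30, Mvk at 3.48 and 4.47, Hsd17b7 at 2.17 and 2.83 and Fdps at 0.237 and 0.377 FPKM.

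The promoter of Hmgcs1 is shown because it carries, in capitals, a match to TCACNCCAC, a sterol response element form that SREBP binds. It is the 250 bases before the RefSeq start site in GRCm38.p6, chr13:119690101-119690350 on the plus strand.
Hmgcs1: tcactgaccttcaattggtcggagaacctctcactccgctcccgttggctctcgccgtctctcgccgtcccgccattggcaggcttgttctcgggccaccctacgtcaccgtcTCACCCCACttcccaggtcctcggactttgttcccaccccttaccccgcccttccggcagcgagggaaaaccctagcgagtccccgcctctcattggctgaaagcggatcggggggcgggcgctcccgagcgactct
The motif was in 1.24% of all 32851 windows and in 1.17% of those of named genes compared, both strands searched. The compared cholesterol genes had 15 windows, from 12 genes, and 1 of the 15 (6.67%), that of Hmgcs1, held the motif. In these 300-base windows the letters were absent for the other matched genes.

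Immediate early genes, which respond within minutes to signals, were slightly higher as a group and clearly higher for a few. Of 23 compared, 19 were above 0 with a median of 0.20, and 4 were at least 1.5-fold higher (1.77% over all genes). Jun, an AP-1 subunit, was at 160 and 328 FPKM, 2.05-fold higher in the cKO library (2.01 to 2.09). Klf6 was at 88.5 and 163 FPKM, Klf2, a factor of quiescence, at 39.1 and 70.4, and the phosphatase gene Dusp1 at 502 and 802. Other members were near equal: Egr1 was at 462 and 476 FPKM, Atf3 at 13.1 and 13.1, and Nr4a2 at 26.9 and 27.1.

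Chemokine genes went both ways. Ccl3 was at 31.7 and 70.8 FPKM, 2.23-fold higher in the cKO library (1.95 to 2.56), its neighbour Ccl4 at 220 and 391, and Ccl9 at 4.67 and 9.51. Lower were Ccl8, Ccl6 (38.4 and 15.4) and Cxcl14 (9.84 and 3.56, 2.76-fold, 2.31 to 3.32). Among genes of chromatin and RNA methylation, Prmt1, the main arginine methyltransferase, was at 14.6 and 28.6 FPKM, 1.96-fold higher (1.83 to 2.1). Rbbp4, a histone-binding subunit of several chromatin complexes, was at 15.2 and 29.3, 1.93-fold higher (1.86 to 2.02). No other of the 18 compared chromatin enzyme genes was 1.5-fold apart (7.28% over all genes). Ctla2a, a protease inhibitor gene abundant in stem cells, was at 994 and 1840 FPKM, 1.85-fold higher (1.83 to 1.87). Ppp2r5e, a regulatory subunit of protein phosphatase 2A, was at 2.76 and 7.0 FPKM, and Xlr3b at 4.18 and 9.54.

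Replication-dependent histone genes scattered in both directions. Hist1h1a was at 21.2 and 7.28 FPKM, Hist1h2ae at 194 and 80.6 and Hist1h1e at 125 and 52.5, all lower in the cKO library. Hist1h2bg, in contrast, was at 9.02 and 23.5 FPKM, 2.61-fold higher (2.09 to 3.27). The list median of -0.09 over 17 genes turned positive under the scaling to recovered read totals. Proliferation genes, like most genes, were near equal. Of 35 DNA replication genes compared none was 1.5-fold apart (7.28% over all genes). Mcm3 was at 42.5 and 48.9 FPKM, and Mki67 was at 6.04 and 4.75.

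Among partners and antagonists of Twist1, Id2 and Id1 were apart in opposite directions. Of the E protein genes only Tcf3, which encodes E2A, was compared, at 26.0 and 26.2 FPKM, while Tcf12 (2.15 and 2.12) and Tcf4 (3.58 and 3.54) were below the minimum. Id2 was at 140 and 71.0 FPKM, 1.97-fold lower in the cKO library (1.87 to 2.07). Id1 went the other way, at 15.5 and 22.1 FPKM, 1.43-fold higher (1.26 to 1.61), and Id3 was at 7.83 and 8.85. Runx1, a master regulator of blood stem cells, was at 5.45 and 5.65 FPKM, and the calcium channel gene Cacna1b had 6 reads in each library. Of the genes tied to stress and quiescence, Cdkn1a was at 79.4 and 68.8 FPKM, Myc at 172 and 197, and Ppargc1a, the regulator of mitochondrial biogenesis, at 0.280 and 0.313 with 48 and 52 reads.

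The highest named gene was mt-Co1, a mitochondrially encoded subunit of cytochrome oxidase, and no other mitochondrial message was 1.5-fold higher. It was at 146 and 733 FPKM, 5.01-fold higher in the cKO library (4.87 to 5.15). The neighbouring mt-Co2 was at 21.3 and 24.2 FPKM, mt-Co3 at 58.6 and 60.8, mt-Cytb at 875 and 1080 and mt-Nd1 at 591 and 647. Only mt-Atp8 was 1.5-fold lower, with 44 and 24 reads. The median of the 11 compared mitochondrial genes was 0.05. Gm29216, a predicted nuclear gene with a like difference, was at 11.9 and 76.0 FPKM, 6.41-fold higher (5.39 to 7.65), while other predicted genes, Gm10925, Gm28437 and Gm28661, were at 86.1 and 89.9, 52.7 and 51.4 and 23.2 and 23.3. Copies of mitochondrial genes lie in the nuclear genome, so the placing of mt-Co1 reads is uncertain, and the part of this in the difference was not tested. Rpl29 was the lowest named gene outside the antibody genes, at 80.3 and 18.2 FPKM, 4.42-fold lower (3.94 to 4.96). Ribosomal protein genes have many near-copies in the genome, and the other 82 compared cytosolic ribosome genes differed far less, around a list median of -0.35.

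Nuclear genes of respiratory chain complexes I, III, IV and V and of ribosomes were mostly lower, by small amounts. Complex I genes had a median of -0.33 over 35 compared, complex III -0.28 over 9, complex IV -0.40 over 11 and complex V -0.34 over 17. Without the 50 most abundant genes these medians were -0.13, -0.09, -0.21 and -0.15, and that of cytosolic ribosome genes was -0.16 in place of -0.35, while the median of all genes was 0.19. Complex II was closer, with a median of -0.12 over 4 and Sdha above 0 (difference 0.14). Respiratory chain assembly genes had a median of -0.06 over 33. These 2 medians turned positive without the 50 most abundant genes and with recovered read totals. Among the genes of complexes I to V only Atp5k (164 and 105 FPKM) was 1.5-fold lower (5.51% over all genes). Ndufa2 was at 401 and 289 FPKM and Cox8a at 776 and 545. Genes of the tricarboxylic acid cycle, which feeds the chain, stayed at a median of 0.04 over 24, and glycolysis genes at 0.06 over 23, with the glucose transporter gene Slc2a3 at 10.6 and 17.3 FPKM. The small differences went with level and with gene length. Genes under 10 FPKM had a median of 0.07 and those of 200 FPKM or more -0.28, and named genes with gene models of 500 to 1000 bases had a median of -0.26 and those of 4000 or more 0.07. Ribosomal and small respiratory chain genes are abundant and short, and the part of level and length in their medians was not tested.

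**Figure D4:**
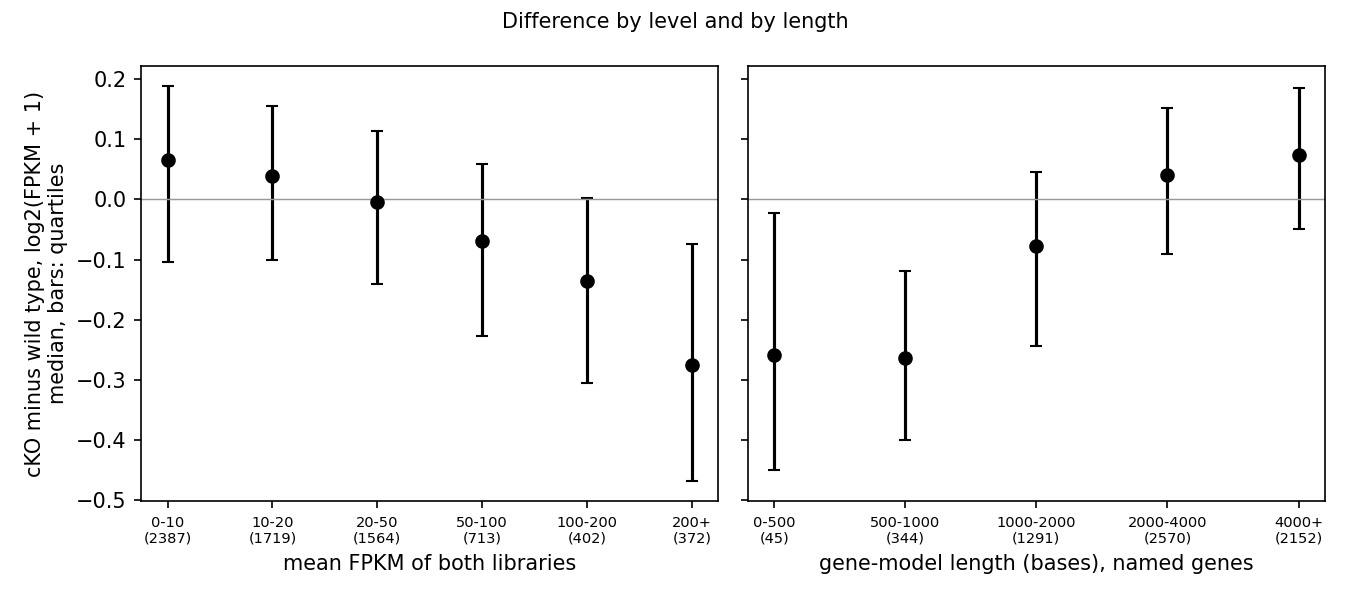
Median difference between the Twist1 cKO and wild-type libraries, as log2(FPKM + 1), by mean FPKM of the gene (left) and by gene-model length in bases (right; named genes only), with quartiles as bars and the number of genes in brackets. The median goes from 0.07 in the lowest to -0.28 in the highest level group, and from -0.26 in models of 500 to 1000 bases to 0.07 in the longest.

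The irradiated pair, read with its own 6348 compared genes, had the opposite balance, with 284 genes at least 2-fold higher (4.47%) and 66 lower (1.04%) in the cKO library. Its median over all genes was -0.45, against 0.01 at steady state. The library size behind the FPKM was 0.895 times the recovered reads in irradiated wild type and 1.15 times in irradiated cKO. At steady state these ratios were 1.04 in wild type and 1.14 in cKO. The part of this scaling in the irradiated medians and their signs was not tested. The macrophage genes compared in both pairs, 24 in all, had a median of -1.37 at steady state and 0.78 after irradiation. C1qa, for example, was at 207 and 58.0 FPKM at steady state and at 119 and 216 after irradiation. The 14 secondary and tertiary granule genes compared in both pairs had medians of 0.56 and 1.40 and thus the same direction. For Ngp the irradiated values were 101 and 266 FPKM. Stroma, bone and fat genes had medians of -0.70 and -0.36 over 6, with 2 of the 6 above 0 after irradiation. Cholesterol synthesis genes had medians of 0.32 and -0.33 over 12. Both irradiated medians were above the -0.45 of all genes in that pair. The difference mt-Co1 showed at steady state was small after irradiation, at 337 and 393 FPKM, and Rpl29 there was at 196 and 266. Each pair has 1 library per genotype, so none of these contrasts between the pairs was tested.

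**Figure D5:**
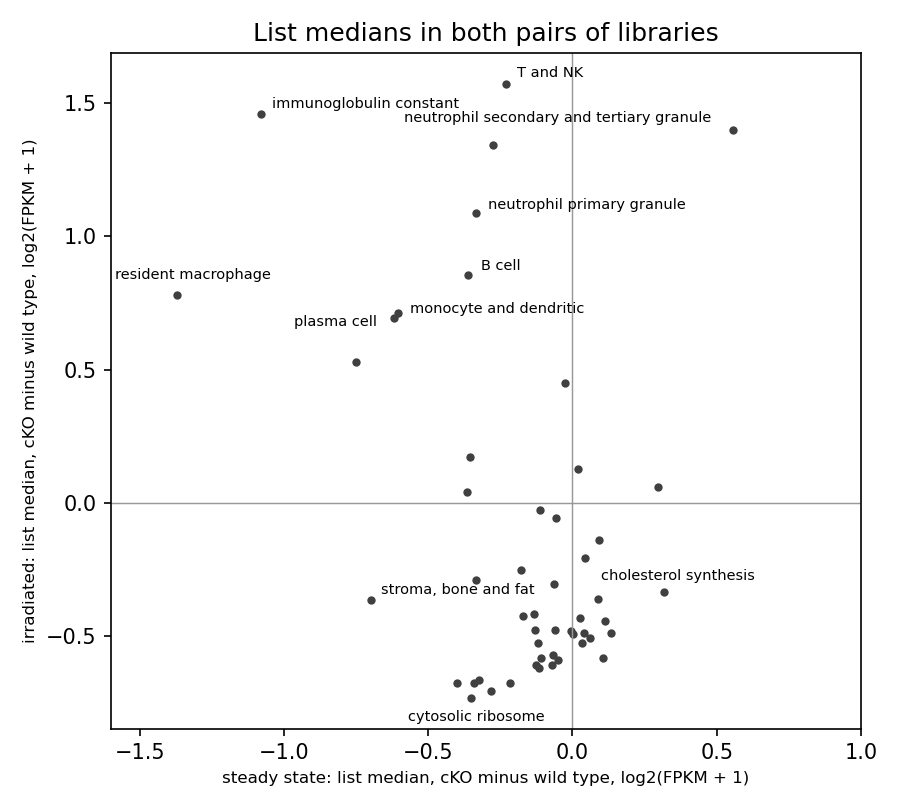
Median difference, cKO minus wild type as log2(FPKM + 1), of gene lists with at least 4 genes compared in both pairs, at steady state (x axis) and 12 days after irradiation (y axis). Resident macrophage, plasma cell and immunoglobulin constant lists lie at upper left, lower at steady state and higher after irradiation, and the secondary and tertiary granule list lies at upper right.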

How the data were processed

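The authors deposited 1 table per RNA library with FPKM values per Ensembl gene. Per the submitters' processing notes, the build was mm10 and the tools of the series include HOMER, MACS2 2.1.0, BWA 0.7.12-r1039 and Bowtie. The sources used here do not name the tool behind the FPKM. RefSeq tables for GRCm38 gave symbols for 30231 of 30409 genes, positions and promoters. Genes that reached 5 FPKM in either library were compared on log2(FPKM + 1).

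The members and all 58 gene lists were chosen with earlier results of these data known. Text names the 20 highest and 20 lowest genes (no segments, predicted or non-coding symbols), the 10 most abundant, up to 4 genes farthest apart per list and a set fixed by name. Genes outside this rule were named for their role after their values were seen.

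FPKM are whole multiples of what 1 read is worth, so reads were recovered as the smallest whole numbers in ratio to the FPKM of a gene over 4 libraries. This succeeded for 30409 of 30409 genes (tolerance 0.005), 475 of them at 0 throughout. Where all 4 counts share a factor, recovered reads are too low, which widens intervals and leaves ratios unchanged. They added up to 25097378 (wild type) and 22124337 (cKO). Intervals are exact Clopper-Pearson or conditional binomial at 95%. No count model was run, since 1 library per group leaves 0 residual degrees of freedom. Scripts used Python 3.11.15, pandas 2.3.3 and scipy 1.17.1 and were tested on simulated data. Alternatives were the pseudocount, the minimum level, scaling, and leaving out non-coding or antibody genes, the last chosen after seeing the data. Some genes the naming rule takes in are not reported here.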

Additional observations from a re-analysis of the deposited data

Results flagged for a closer look

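With 1 library in each group, no contrast between the steady-state and the irradiated pair was tested. Of 51 gene lists with at least 4 genes compared in both pairs, 24 had medians of opposite sign, 12 of them below 0 at steady state and above 0 after irradiation. Over all genes the median difference was 0.01 at steady state and -0.45 after irradiation. The irradiated libraries also differed in library size relative to recovered reads (0.895 in wild type and 1.15 in cKO). The part of this scaling in the signs was not tested. In 4 lists the median passed 1.5-fold in opposite directions. Resident macrophage genes had a median of -1.37 at steady state and 0.78 after irradiation. Monocyte and dendritic genes compared in both pairs had medians of -0.61 and 0.71, plasma cell genes -0.62 and 0.69, and immunoglobulin constant genes -1.08 and 1.46.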

How the results depend on the processing

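No paired analysis was possible because each group held 1 library, and for the same reason no replicate could be left out. The count of 239 genes 2-fold apart became 383, and that of higher genes 126 in place of 46, with a minimum of 1 FPKM or none. Higher genes numbered 25 at a minimum of 20 FPKM and 74 with the 50 most abundant genes left out. Without immunoglobulin genes and T cell receptor segments 121 genes were apart (27 higher, 94 lower), and with recovered read totals as well 109 (28 and 81). With the 50 most abundant genes left out, list medians were 0.35 for LT-HSC, -1.19 for macrophage, -0.43 for plasma cell and 0.63 for cholesterol genes. Recovered read totals gave 0.27 for LT-HSC and -1.24 for macrophage genes, a pseudocount of 5 gave -1.20 for macrophage genes, and a minimum of 20 FPKM gave 0.24 for cholesterol genes. Both scalings multiply all genes of a library by the same factor. Under them the median of all genes was 0.19 without the 50 most abundant genes and 0.14 with recovered read totals. A larger pseudocount makes every difference smaller, and at the higher minimum fewer genes are compared. None of these list medians changed sign. Counting intervals wholly past 2-fold were found for 36 higher and 164 lower genes. Depth limits Twist1, Twist2 and Cacna1b, each with 6 reads or fewer per library.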

Other observations

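T and NK cell genes went both ways at steady state. Of 10 compared, 6 were below 0 and 4 above, with a median of -0.24, and that median turned positive at a minimum of 20 FPKM. Nkg7, a cytotoxic granule gene, was at 318 and 325 FPKM and Lck at 6.60 and 7.05, while the T cell receptor constant gene Trbc2 was at 9.94 and 7.16. Of the gamma chain constant genes, Tcrg-C1 was at 17.8 and 26.6 FPKM, Tcrg-C4 at 12.6 and 8.77, and Tcrg-C2 at 6.26 and 3.60. Tcrg-C2 was the only compared member of the list 1.5-fold apart (7.28% over all genes). Among adhesion genes, the integrin gene Itgb1 was at 36.8 and 37.6 FPKM and Selplg at 55.4 and 54.3.

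Gdf15, a stress cytokine and p53 target, was at 16.1 and 6.82 FPKM, 2.36-fold lower in the cKO library (2.07 to 2.70), while the p53 targets Ddb2 (3.76 and 5.47) and Bbc3 (7.12 and 9.12) were higher. Gar1, a component of the box H/ACA ribonucleoprotein, was at 44.2 and 70.9 FPKM, 1.60-fold higher (1.52 to 1.70), and Fbl, fibrillarin, at 40.9 and 57.6. Pabpc1, the poly(A)-binding protein gene, was at 49.1 and 29.0 FPKM, 1.69-fold lower (1.63 to 1.76). Y-linked Ddx3y was at 10.2 and 12.4 FPKM and Xist had 8 and 7 reads, so both libraries carry the pattern of male cells.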
